A study of Homo sapiens with 2 samples.

Results

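The 72 genes described here encode the matrix metalloproteinases (MMPs, 22 genes), the ADAM proteases (22 genes), the ADAMTS proteases (19 genes), the tissue inhibitors of metalloproteinases (TIMPs, 4 genes) and a set of 5 genes formed by PLAU, PLAUR, PLAT, SERPINE2 and RECK. They were taken by gene symbol alone from the 57736 genes of the deposited table, a rule that uses no measured value, although this set of families was picked with earlier results of these data known. Expression was measured by AmpliSeq, a targeted RNA sequencing method that amplifies a short piece of each gene's transcript, in A549 cells, a human lung adenocarcinoma line. The series text names the line A549 VIM RFP, a name used for A549 cells with a red fluorescent tag on vimentin, while the labels of both groups give the genotype as WT. One group was the EMT model, cells taken through epithelial to mesenchymal transition with TGF-beta. The other group received no treatment. Each group was 1 library made from 10 ng of total RNA, and the dose and duration of TGF-beta are not stated in the labels. With 1 library per group there is no replicate spread and no test of the treatment, so sizes are given with intervals that cover counting error only.

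These genes make up much of the extracellular protein-cutting machinery of a cell. MMPs are zinc-dependent enzymes that degrade collagens and other matrix proteins, ADAMs release the outer parts of membrane proteins such as growth factor precursors, and ADAMTS enzymes are secreted and act on proteoglycans, procollagens and von Willebrand factor. TIMPs bind and block the metalloproteases, and RECK does so from the cell membrane. Urokinase (PLAU), bound to its receptor PLAUR, and tissue plasminogen activator (PLAT) convert plasminogen to plasmin, which digests fibrin and can activate MMPs, and the serpin SERPINE2 inhibits these activators and other serine proteases. Carcinoma cells in EMT are known for changes in several of these genes.

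The library of the EMT group, called the library labelled TGF-beta because several genes known to respond to TGF-beta went against its label, held 597133 rounded counts and the untreated library 674784. Levels are given in CPM, the count relative to library size after TMM scaling (trimmed mean of M-values, edgeR), on which 1 count is worth 1.77 CPM in the library labelled TGF-beta and 1.40 CPM in the untreated library. A ratio is always the library labelled TGF-beta over the untreated library on the log2 scale, and equal counts give 0.34 after scaling. Of 6 genes known to rise with TGF-beta or in EMT, chosen after their values were seen, TGFBI had 15 counts there against 407, VIM 56 against 452 and CDH2 11 against 25. SMAD7 had 5 against 22, FN1 3 against 0 and COL1A1 356 against 196. The 73 cytosolic ribosomal protein genes that passed the filter had a median log2 ratio of -3.26, and all 83 such genes together took 0.250% of the counts there against 3.19% in the untreated library. Of the 8 epithelial markers listed for A549, 7 passed the filter, and 3 of these were lower by 2-fold or more (KRT7 with 32 against 179 counts, KRT8 16 against 53, LAMB3 16 against 52). The cadherin CDH1 (4 against 1) and EPCAM (7 against 4) were higher, CLDN4 had 8 against 9, KRT19 45 against 51 and KRT18 0 against 3. Leukocyte markers summed to 16 against 51 counts over 8 genes, with CD68 at 2 against 17, CSF1R at 2 against 12, CD14 at 0 against 10, PTPRC at 2 against 5 and LYZ at 0 in both. Endothelial markers summed to 46 against 54 over 7 genes. Alveolar type 2 markers summed to 56 against 58 over 7 genes, of which ABCA3 gave 45 and 53, with LAMP3 at 0 in both. Fibroblast markers summed to 366 against 215 over 8 genes, of which COL1A1 gave 356 and 196, with LUM and FAP at 0 in both. The part of RNA quality or of other cells in the differences below was not tested, and in bulk RNA fewer cells that express a gene and less RNA per cell cannot be told apart.

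Most of the 72 genes were read at very low depth. They held 375 counts in the library labelled TGF-beta, 0.0628% of its total (exact 95% binomial interval 0.0566% to 0.0695%), and 634 counts in the untreated library, 0.0940% (0.0868% to 0.102%). The median gene of the set had 3 and 4 counts. Only 7 genes reached 20 counts in 1 of the libraries, and 8 genes (MMP1, MMP3, MMP8, MMP10, MMP13, MMP20, MMP26 and ADAM21) had rounded counts of 0 in both. A filter of at least 5 CPM in 1 library was passed by 47 genes, and the other 25 had at most 2 counts in the library labelled TGF-beta and at most 3 in the untreated library. Ratios against a zero use a floor of 3 counts, which is 5.31 CPM in the library labelled TGF-beta and 4.21 CPM in the untreated library. The exact 95% Poisson interval of a zero reaches higher, to 6.53 CPM and 5.17 CPM.

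At a threshold of 2-fold, the proteases and inhibitors as a set differed between the libraries about as often as other genes did. Of the 47 that passed, 11 were at least 2-fold lower in the library labelled TGF-beta, beside 26.7% of all 15401 genes that passed the filter, and 11 were at least 2-fold higher, beside 22.0%. These shares are 23.4% of the 47 in each direction. With DESeq2 size factors the split was 12 lower and 9 higher of 45, beside 33.8% and 17.5% of all genes. A stricter rule asked for at least 2-fold with a counting interval that leaves out equality. Of the 47, 6 met it as lower (PLAUR, SERPINE2, TIMP1, TIMP4, ADAM9 and ADAM10), beside 15.4% of all genes. Only 1 of the 47 (RECK) met it as higher, a smaller share than the 8.40% of all genes. RECK did not meet this rule with DESeq2 size factors, total counts or counts outside its first exon region. The median log2 ratio of the 47 was 0.14, beside 0.01 for all genes that passed. It was -0.11 with DESeq2 size factors, -0.016 with total counts, and -0.84 with a filter of 20 CPM in place of 5 CPM, which 16 genes passed, so its sign depends on the scaling and on the filter. Every direction is relative to the bulk of expressed genes: scaled on the ribosomal protein genes, all ratios shift by 3.51, and the 6 lower genes then lie above 0, from 0.31 for TIMP1 to 1.88 for SERPINE2.

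Promoters are shown for 5 genes because their genes carry the differences below or hold their counts in the first exon: the receptor gene PLAUR, the serpin gene SERPINE2, the inhibitor genes TIMP1 and TIMP3, and RECK. Each is the 250 bases before the annotated gene start, 5′ to 3′ on the gene's strand, from RefSeq in build GRCh38.p14, a later build than that of the counts. These starts were not matched to the gene starts of the deposited coordinates, so a window can lie inside the counted gene. Capitals mark the AP-1 element (TGAGTCA or TGACTCA, each the reverse complement of the other), the GC box (GGGCGG or CCGCCC) and the CCAAT box (CCAAT or ATTGG), which was added after the sequences were seen. AP-1, the dimer of FOS and JUN family proteins, is a classical regulator of protease genes.
PLAUR, chr19:43670170-43670419, minus strand: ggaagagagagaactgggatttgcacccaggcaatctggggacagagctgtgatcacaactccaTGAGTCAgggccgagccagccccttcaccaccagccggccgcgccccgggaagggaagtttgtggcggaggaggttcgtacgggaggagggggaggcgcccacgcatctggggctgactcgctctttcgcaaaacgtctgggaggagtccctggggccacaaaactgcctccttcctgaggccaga
SERPINE2, chr2:224031479-224031728, minus strand: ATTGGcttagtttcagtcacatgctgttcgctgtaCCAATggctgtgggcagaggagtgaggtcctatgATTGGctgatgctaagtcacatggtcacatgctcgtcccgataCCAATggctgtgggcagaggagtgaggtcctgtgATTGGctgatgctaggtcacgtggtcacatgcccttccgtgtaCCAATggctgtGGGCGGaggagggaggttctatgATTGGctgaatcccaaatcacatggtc
TIMP1, chrX:47582186-47582435, plus strand: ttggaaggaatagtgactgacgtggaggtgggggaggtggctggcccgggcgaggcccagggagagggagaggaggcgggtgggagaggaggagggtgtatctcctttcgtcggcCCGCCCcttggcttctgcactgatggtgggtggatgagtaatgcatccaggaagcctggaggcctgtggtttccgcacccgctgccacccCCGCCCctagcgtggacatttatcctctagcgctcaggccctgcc
TIMP3, chr22:32801455-32801704, plus strand: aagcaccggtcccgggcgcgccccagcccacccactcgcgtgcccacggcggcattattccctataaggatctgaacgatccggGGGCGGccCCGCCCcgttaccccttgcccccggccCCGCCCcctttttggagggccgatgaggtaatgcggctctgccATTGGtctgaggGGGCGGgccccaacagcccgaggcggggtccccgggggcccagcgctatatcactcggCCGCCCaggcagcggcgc
RECK, chr9:36036663-36036912, plus strand: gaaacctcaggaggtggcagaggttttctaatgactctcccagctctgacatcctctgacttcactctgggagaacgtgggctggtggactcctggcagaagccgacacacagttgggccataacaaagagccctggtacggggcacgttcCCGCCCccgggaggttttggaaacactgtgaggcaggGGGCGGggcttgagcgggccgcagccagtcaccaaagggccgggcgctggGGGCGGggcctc
The AP-1 element lies in the PLAUR window, starting 186 bases before the gene start, and in none of the other windows shown. Of the 72 genes 42 had a promoter entry, and 2 of these windows (PLAUR and MMP7) held the element, 4.76%, beside 4.16% of 27305 promoters. A GC box was in 27 of the 42 windows (64.3%, beside 42.3% of all promoters), with 5 in TIMP3, 3 in RECK, 2 in TIMP1, 1 in SERPINE2 and 0 in PLAUR. CCAAT boxes were in 17 of the 42 (40.5%, beside 33.0%), and the SERPINE2 window alone held 7. None of these motif shares is a measure of binding.

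The urokinase receptor had the most untreated counts of the 72 genes and the clearest difference. PLAUR (ENSG00000011422, hg19 chromosome 19, 44150247 to 44174699, minus strand) had 12 counts in the library labelled TGF-beta and 114 in the untreated library. These are 21.2 CPM (exact 95% Poisson interval 11 to 37.1) against 160 CPM (132 to 192), and the intervals do not overlap. PLAUR was thus 7.53-fold lower in the library labelled TGF-beta, for a log2 ratio of -2.91 (95% counting interval -3.91 to -2.05). SERPINE2 (ENSG00000135919, chromosome 2, 224839829 to 224904036, minus strand), also called protease nexin 1, had 12 counts against 47. It was 3.10-fold lower there, for a log2 ratio of -1.63 (-2.68 to -0.70).

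The activators themselves were too sparse for a difference to be seen. PLAU, the urokinase gene, had 2 counts against 6, and its log2 ratio of -1.25 had an interval from -4.59 to 1.23. PLAT, the tissue activator, had 7 against 6, with 0.56 (-1.24 to 2.41). PLAU shares its locus with C10orf55 on the opposite strand (2 counts in each library), and whether the counting used strand is not given in the sources used here. Receptor and serpin were thus lower in the library labelled TGF-beta, while neither activator differed beyond counting error.

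**Figure D1:**
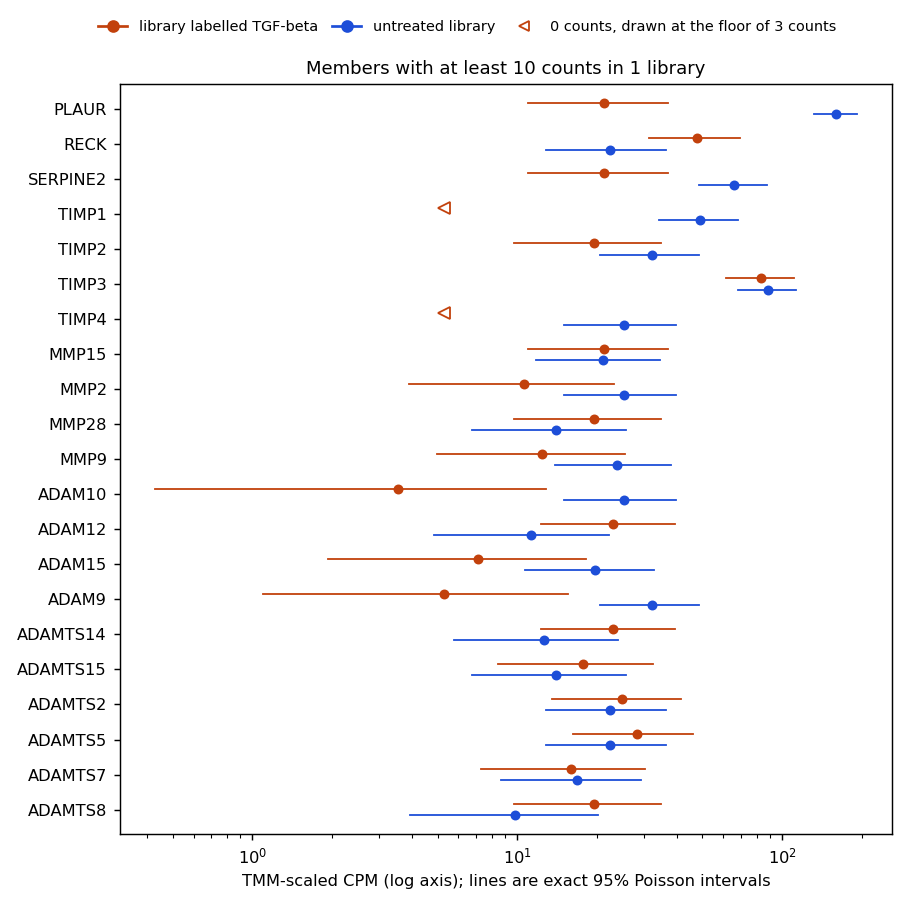
Level of each gene with at least 10 counts in 1 library, in TMM-scaled CPM on a log axis, with exact 95% Poisson intervals, for the library labelled TGF-beta (orange) and the untreated library (blue); open triangles mark 0 counts at the floor of 3 counts. PLAUR lies at 21.2 against 160 CPM and TIMP1 at 0 counts against 49.1 CPM, while TIMP3 and the ADAMTS genes overlap between the libraries; scaled on ribosomal protein genes the direction of PLAUR and TIMP1 flips.

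Several partners of the plasminogen system outside the set were lower in the library labelled TGF-beta as well. Of 20 listed genes 9 passed the filter, 4 of them at least 2-fold lower there and 1 (SERPINF2, with 3 against 1 counts) at least 2-fold higher, beside 26.7% and 22.0% of all genes. Their median log2 ratio was -0.66, and -1.55 without SERPINF2, the only one of the 9 with 3 counts or fewer in both libraries. Some plasminogen-binding surface proteins were low as well. ANXA2, annexin A2, had 19 counts against 259, with -3.43 (-4.19 to -2.76). Its partner S100A10 had 1 against 39, with -4.95 (-10.3 to -2.39). ENO1, a glycolytic enzyme that also binds plasminogen at the cell surface, had 107 against 735, with -2.44 (-2.75 to -2.15). LRP1, the receptor that clears activator and inhibitor complexes, had 38 against 43, with 0.16 (-0.51 to 0.82). Plasminogen itself (PLG) and the plasminogen receptor PLGRKT each had 1 count against 0.

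The metalloprotease inhibitors were split. TIMP1 (ENSG00000102265, chromosome X, 47441712 to 47446188, plus strand), a secreted inhibitor of most MMPs, had 0 counts in the library labelled TGF-beta and 35 in the untreated library, which is 49.1 CPM (34.2 to 68.3). With the zero set to 3 counts its level was 9.24-fold lower in the library labelled TGF-beta, a log2 ratio of -3.21, and the counting interval reached up to -2.83. TIMP4 (ENSG00000157150, chromosome 3, 12194551 to 12200851, minus strand), the inhibitor with the narrowest tissue range, had 0 against 18. On the same floor its log2 ratio was -2.25, and the interval reached up to -1.80.

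The other inhibitors were present in both libraries. TIMP3, which is held in the matrix and also blocks ADAM17, was the best-read gene of the set in the library labelled TGF-beta, with 47 counts against 63. Its 83.2 CPM against 88.3 CPM gave a log2 ratio of -0.09 (-0.66 to 0.48), so a 2-fold difference in either direction lay outside the interval. TIMP2, the inhibitor that also takes part in pro-MMP2 activation, had 11 against 23, with -0.73 (-1.91 to 0.37). RECK (ENSG00000122707, chromosome 9, 36036430 to 36124448, plus strand) had 27 against 16, which is 47.8 against 22.4 CPM. Its 2.13-fold higher level in the library labelled TGF-beta had a log2 ratio of 1.09 (0.15 to 2.08), which was 0.87 with DESeq2 size factors and 0.93 with total counts, under 2-fold in both cases.

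TIMP1, TIMP3 and TIMP4 lie inside synapsin genes on the opposite strand in the deposited coordinates. TIMP1 lies within SYN1, TIMP3 within SYN3 and TIMP4 within SYN2. SYN1 had 10 counts against 3, SYN2 3 against 8 and SYN3 1 against 1. Beside these stand 0 against 35 counts for TIMP1, 0 against 18 for TIMP4 and 47 against 63 for TIMP3, and the part of the host genes in them was not tested. In all, 13 of the 72 genes overlap an opposite-strand gene with more than 3 counts summed over both libraries. Among them is MMP24, which lies within EDEM2 (6 counts against 12).

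MMP genes were sparsely read, and no single one differed between the libraries beyond counting error. Of the 22, 11 passed the filter, of which 2 lay lower by 2-fold or more in the library labelled TGF-beta and 4 higher by as much, beside 26.7% and 22.0% of all genes. None had a counting interval that left out equality. The summed counts were 69 and 87, which is 122 CPM in each library, for a log2 ratio of 0.00 (-0.48 to 0.47). The median log2 ratio of the 11 was 0.01.

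The secreted collagenases and stromelysins of the chromosome 11 cluster were not detected beyond single counts. This cluster of 9 genes (MMP7, MMP20, MMP27, MMP8, MMP10, MMP1, MMP3, MMP12 and MMP13) spans 102391239 to 102826463 in hg19, 435 kb. Its genes summed to 2 counts in the library labelled TGF-beta and 1 in the untreated library. The interstitial collagenase MMP1, stromelysins MMP3 and MMP10, and collagenase MMP13 had 0 in both libraries. MMP7, the matrilysin of epithelial cells, had 1 against 0.

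The gelatinases, which cut denatured collagen and basement membrane collagen, had more untreated counts. MMP2 had 6 counts against 18, for a log2 ratio of -1.25 (-2.87 to 0.15). MMP9 had 7 against 17, with -0.94 (-2.46 to 0.40). Each interval reached equality, whereas the sum of the pair, 13 against 35 counts, had a log2 ratio of -1.09 with an interval from -2.14 to -0.14. This pair was set by enzyme class and its sum was not among the planned results.

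Membrane-type MMPs, which act at the cell surface, summed to 32 counts in each library. MMP14, the main activator of pro-MMP2, had 4 against 2, and MMP15 had 12 against 15, for a log2 ratio of 0.01 (-1.21 to 1.21). MMP17 had 5 against 7, with -0.15 (-2.15 to 1.72). MMP28, a secreted MMP of epithelia, had 11 against 10, with 0.47 (-0.90 to 1.87). The highest ratios of the family rested on 5 against 1 counts in MMP21 and 4 against 1 in MMP11, the stromelysin of tumour stroma.

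Among the ADAMs, ADAM9 and ADAM10 were lower in the library labelled TGF-beta beyond counting error. They also had the most untreated counts of the family, and picking genes by untreated counts by itself favours lower ratios. ADAM9 (ENSG00000168615, chromosome 8), a widely expressed sheddase, had 3 counts against 23, for a log2 ratio of -2.60 (-4.98 to -0.88), or 6.07-fold lower. ADAM10 (ENSG00000137845, chromosome 15, 58887403 to 59042177, minus strand), the sheddase of Notch and cadherins, had 2 against 18. Its log2 ratio was -2.83 (-5.99 to -0.77), or 7.13-fold lower. ADAM15 had 4 against 14, with -1.47 (-3.53 to 0.20), and ADAM17, the TNF converting enzyme, 1 against 4, with -1.66 (-7.29 to 1.67).

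Other ADAMs leaned the opposite way within counting error. ADAM12, a sheddase that is known as a TGF-beta-induced gene, had 13 counts against 8, for a log2 ratio of 1.04 (-0.34 to 2.51). ADAM8 had 8 against 4, with 1.34 (-0.56 to 3.52), and ADAM33 had 8 against 3. All 9 ADAM genes that passed the filter were among the 12 with catalytic residues. Of these 9, 4 lay lower by 2-fold or more and 3 higher, beside 26.7% and 22.0% of all genes. The 8 ADAMs without catalytic residues, which act in adhesion and fertilization, summed to 5 counts against 12. The 2 pseudogenes ADAM5 and ADAM6 summed to 2 in each library.

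No ADAMTS gene had a counting interval that left out equality. Of the 19, 18 passed the filter. None was lower by 2-fold or more and 3 were higher, beside 26.7% and 22.0% of all genes. The 3 were ADAMTS3, ADAMTS16 and ADAMTS18, each with 8 counts or fewer in both libraries. ADAMTS20 had 0 counts against 4, and its log2 ratio of -0.08 used the floor of 3 counts. The 19 genes summed to 132 counts in the library labelled TGF-beta against 120. This gave a log2 ratio of 0.47 (0.11 to 0.84), where equal counts give 0.34. ADAMTS5, a major aggrecanase, had 16 counts in each library, and ADAMTS15 had 10 in each. ADAMTS13, which cuts von Willebrand factor, had 8 in each. ADAMTS2, a procollagen N-proteinase, had 14 against 16, and ADAMTS14, an enzyme of the same kind, 13 against 9. ADAMTS7, which cuts cartilage oligomeric matrix protein, had 9 against 12, and ADAMTS1, a proteoglycanase, 9 against 7. For ADAMTS5 the log2 ratio of 0.34 had an interval from -0.76 to 1.43, so a 2-fold lower level lay outside it and a 2-fold higher level inside.

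**Figure D2:**
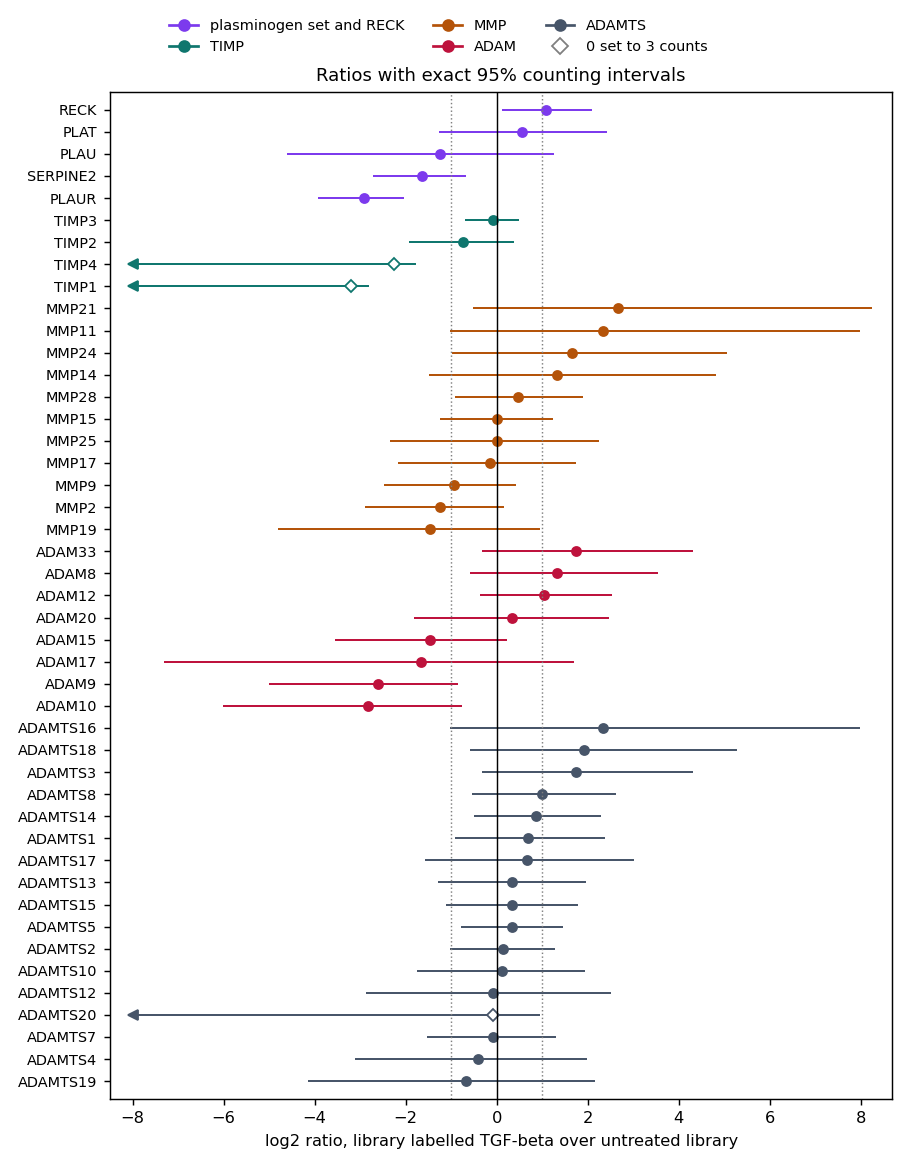
Log2 ratio (library labelled TGF-beta over untreated) of the genes above the filter that had over 3 counts in either library, coloured by family, with exact 95% counting intervals; dotted lines mark 2-fold, open diamonds a zero set to 3 counts, and arrows intervals without a lower end. The intervals of PLAUR, SERPINE2, TIMP1, TIMP4, ADAM9 and ADAM10 lie below 0 and that of RECK above 0; the 6 lower genes lie above 0 when scaled on ribosomal protein genes.

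The other 40 genes that passed the filter held 304 counts in the library labelled TGF-beta and 343 in the untreated library, a log2 ratio of 0.16 (-0.07 to 0.39). These 40 were left after sorting by the same counts, so this value is a description. The same holds for the sum without the 4 genes with the most untreated counts, whose removal by itself raises the ratio. Without these 4 (PLAUR, TIMP3, SERPINE2 and TIMP1), the summed log2 ratio of the whole set moved from -0.42 (-0.61 to -0.24) to 0.03 (-0.19 to 0.26).

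The place of the counts along the genes differed between the libraries. The exon entries of the deposited table were merged where they overlapped into exonic regions, numbered from the 5′ end of the gene, and the 68 genes of the set with at least 3 regions were compared. Internal regions held 49.0% of the expected counts in the library labelled TGF-beta (exact 95% binomial interval 43.7% to 54.2%) and 70.1% in the untreated library (66.2% to 73.6%). First regions held 36.1% (31.1% to 41.2%) and 22.8% (19.6% to 26.4%). Over all 26285 such genes the internal share was 55.2% and 62.3%, and the first share 20.3% and 15.1%. Without PLAUR, TIMP1, TIMP3 and SERPINE2, the internal share of the set was 54.7% and 69.3%, and the first share 27.4% and 18.8%.

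**Figure D3:**
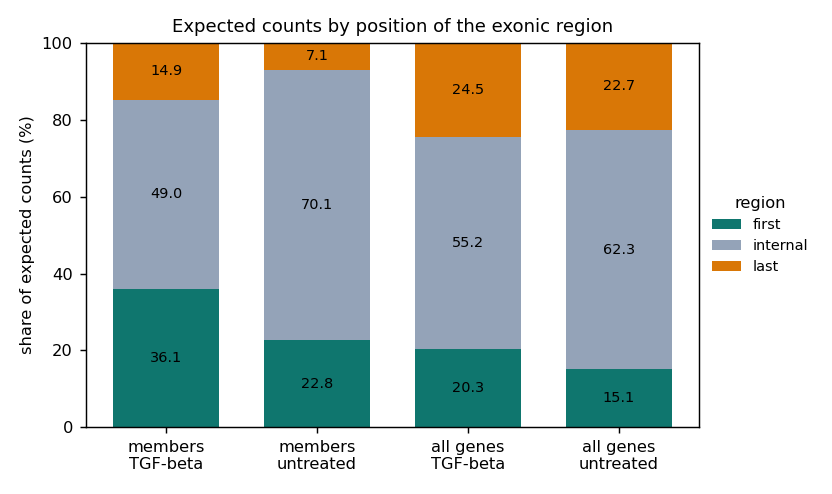
Share of expected counts in the first, internal and last exonic regions of genes with at least 3 regions, for the 68 genes of the set and for all 26285 genes, in each library. The internal share of the set is 49.0% in the library labelled TGF-beta and 70.1% in the untreated library.

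In PLAUR, ADAM9, ADAM10, TIMP1 and TIMP4, most untreated counts lay in internal regions where the library labelled TGF-beta had 0. In PLAUR, regions 6 and 7 of 10 held 32.3 and 61.5 expected counts in the untreated library and 0 in the other. Region 1 held 20.3 in the untreated library and 11 in the library labelled TGF-beta. Outside its first region PLAUR thus had 93.8 counts in the untreated library and 1.0 in the library labelled TGF-beta. In ADAM9, regions 11 and 12 of 23 held 18.3 and 4.23 untreated counts and 0 in the library labelled TGF-beta, whose 3 counts lay in regions 1, 9 and 17. ADAM10 held 11.5 untreated counts in region 3 of 20 and 0 there in the other library. TIMP1 held all of its 34.5 expected counts in region 4 of 5, and TIMP4 held 11.6 in region 4 and 5.39 in region 3.

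Some genes with similar or higher counts in the library labelled TGF-beta held them mainly in the first region, while others such as ADAMTS13 and ADAMTS2 held most of theirs in internal regions. RECK had 26 of its 27 counts there, and 13 of its 16 untreated counts, in region 1 of 24. Outside that region RECK had 1.0 against 3.0, so its higher level rested on the first region alone. TIMP3 held 40 and 53 expected counts in region 1 of 5, and ADAMTS5 13.9 and 16.3 in its first region. MMP15 had 10 and 8 counts in region 1, against 2.0 and 7.33 outside it. SERPINE2 differed from these, with 12.3 and 45 counts in the same region, 12 of 13.

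The gelatinases and TIMP2 each had regions with mainly untreated counts and others with as many or more in the library labelled TGF-beta. Neither gelatinase had counts in its first region. In MMP9, regions 8 and 9 of 13 held 8.16 and 5.0 untreated counts and 0 in the library labelled TGF-beta, whose counts lay in regions 2, 6, 7 and 12. In MMP2, regions 11 and 12 of 19 held 4.49 and 6.51 untreated counts and 0 in the library labelled TGF-beta. Its region 4 held 4.0 untreated counts and 4.67 in the library labelled TGF-beta. In TIMP2, regions 4 and 5 of 6 held 11.8 and 4.20 untreated counts, and 1.54 and 0.88 in the library labelled TGF-beta. Its region 6 held 0 untreated counts and 4.5 in the library labelled TGF-beta. The genes named for their regions were chosen after their values were seen.

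**Figure D4:**
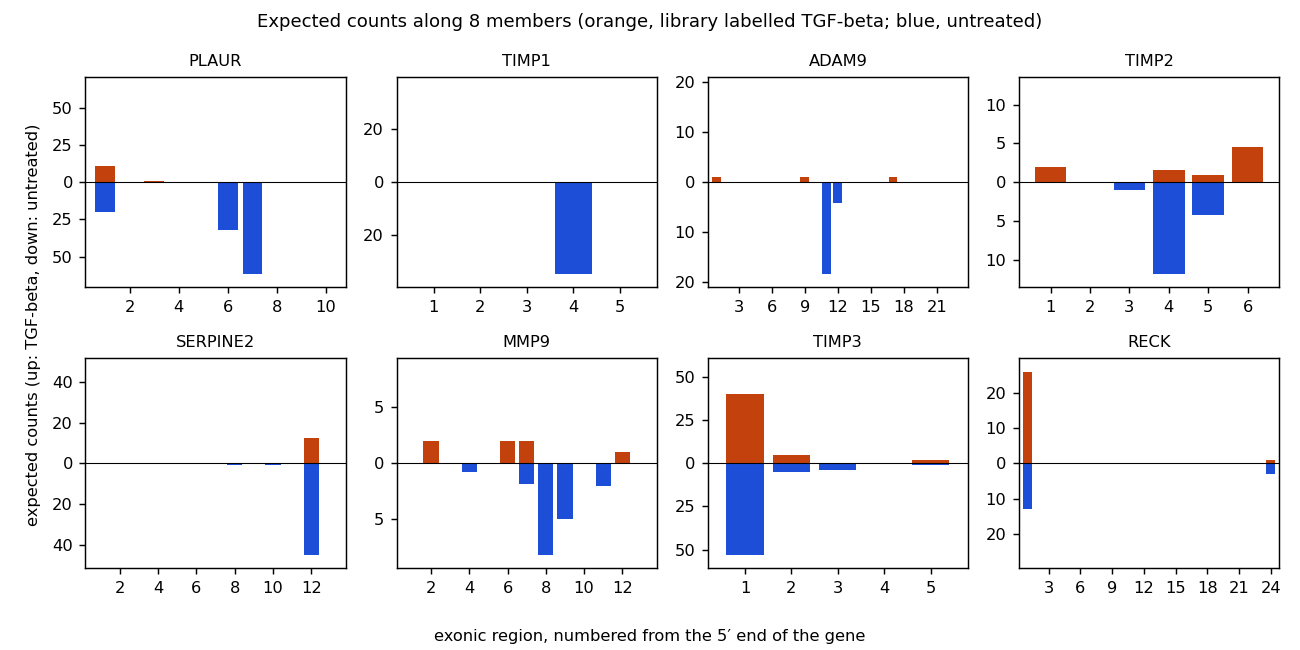
Expected counts in each exonic region of 8 genes, numbered from the 5′ end, with the library labelled TGF-beta drawn upward in orange and the untreated library downward in blue. PLAUR, TIMP1, ADAM9 and MMP9 have internal regions with untreated counts alone, whereas TIMP3 and RECK hold most counts of both libraries in region 1.

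Other proteases and regulators were described from lists of related genes, whose counts of genes lower and higher by 2-fold or more stand beside 26.7% and 22.0% of all genes. Cathepsins, the lysosomal proteases, and their cystatin inhibitors had 14 genes in the table, of which 8 passed the filter, 7 of them lower in the library labelled TGF-beta and none higher, and their median log2 ratio was -2.63. CTSB, cathepsin B, had 2 counts against 47, with -4.22 (-7.31 to -2.29). CTSL had 3 against 42, CTSZ 4 against 35 and the cystatin CSTB 3 against 41. Membrane serine proteases and their inhibitors had 5 lower and none higher of the 12 that passed, of 20 listed, with a median of -0.83. SPINT2, an inhibitor of matriptase and hepsin, had 5 against 89, and the collagen chaperone SERPINH1 12 against 42, whereas matriptase itself (ST14) had 12 against 13.

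Activators, cofactors and further inhibitors of metalloproteases had 5 lower and 1 higher of the 14 that passed, of 20 listed and their median log2 ratio was -0.40. CST3, the cystatin C gene, had 2 counts against 86, with -5.09 (-8.16 to -3.19), and the matrix proteoglycan gene SPOCK1 had 1 against 26, with -4.36 (-9.72 to -1.76). BSG, the MMP inducer basigin, had 52 against 154, with -1.23 (-1.71 to -0.77). The serine protease inhibitor TFPI2 had 0 against 9, and the interval of its log2 ratio reached up to -0.65. FURIN, which activates membrane-type MMPs and ADAMs, had 15 against 14. Astacins and ADAMTS-like proteins had 3 of 8 genes lower and none higher, none of them with a counting interval that left out equality, and a median of -0.31.

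Proteins shed by ADAMs had 5 lower and 1 higher of the 12 that passed, of 20 listed, and their median log2 ratio was -0.19. The syndecans SDC1 and SDC4 had 1 against 20 and 2 against 25 counts, the receptor MET 1 against 20, and the TNF receptor TNFRSF1A 3 against 36. TGFA, an EGF receptor ligand released by ADAM17, had 112 against 123, with 0.20 (-0.18 to 0.58). Transcription factors of protease promoters had 8 lower and 2 higher of the 16 that passed, of 20 listed, with a median of -1.02. Of the AP-1 subunits, FOSL1 had 1 count against 145, with -6.84 (-12.2 to -4.34), FOS 5 against 32 and FOSB 9 against 53. FOSL2 went the other way with 78 against 22, a log2 ratio of 2.16 (1.46 to 2.92). JUNB had 26 against 128, a log2 ratio of -1.96 (-2.63 to -1.35), and JUND 16 against 46, one of -1.19 (-2.11 to -0.34), while JUN had 7 against 6. FOSL2, JUN, JUNB, JUND, TGFA, FURIN, LRP1, PLGRKT and ST14 were named after their values were seen.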

How the data were processed

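Expression was measured in 2 AmpliSeq Transcriptome libraries of A549 cells, 1 per group. The deposited values are expected counts per gene, not normalized, per the file headers and values; gene, transcript and exon entries share 1 table. Per the submitters' processing notes hg19 and DESeq were used, without role or version; for the aligner, counter and strand handling the sources used here give nothing. Gene entries were rounded to whole numbers and scaled with TMM in edgeR 4.0.16 (R 4.3.3). Genes entered with at least 5 CPM in 1 library. Zeros were set to 3 counts for ratios. Intervals are exact 95% Clopper-Pearson (ratios, shares) or Poisson (levels), computed with scipy 1.17.1. They cover counting error only, because each group has 1 library. They treat every count as a separate molecule. PCR copies without molecular identifiers cannot be told from separate molecules, so the intervals can be too narrow even for counting error. The ratio calculation was tested on simulated data. Exon entries were merged into regions where they overlapped, and a region counts as filled above 0.1 expected counts. The alternatives used DESeq2 1.42.0 size factors, other scalings, filters and a pseudocount of 1.

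The members and lists were chosen with earlier results of these data known. Named genes are a fixed panel, each MMP, ADAM or ADAMTS gene with at least 2-fold difference and an interval without equality, the 5 with most summed counts per family, and up to 4 such genes of each related list. Further genes named for coverage of a family were taken after their values were seen. Protein sequences were not used here. One gene of the related lists is counted in its list but is not reported here.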

Additional observations from a re-analysis of the deposited data

How the results depend on the processing

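Depth limits most of these genes to large differences, and no result has a replicate check. No paired analysis was possible because each group has 1 library. Scaling on ribosomal protein genes gave 0 genes at least 2-fold lower and 54 higher among 58, beside 0.529% and 94.3% of all genes. The median log2 ratio was then 3.75, beside 3.26 for all genes. With an interval that leaves out equality 0 were lower and 39 higher, and for this rule the share over all genes was not computed. The same scaling turned PLAUR to 0.60, SERPINE2 to 1.88, TIMP1 to 0.31, TIMP4 to 1.26, ADAM9 to 0.91 and ADAM10 to 0.68. The median was -0.11 with DESeq2 size factors, -0.016 with total counts and -0.84 at 20 CPM. At 20 CPM 7 genes were lower and 2 higher among 16, beside 36.0% and 18.5% of all genes, and fewer genes are tested there. The share of higher calls was then 22.2%, in place of 11 of 22 (33.9% against 45.2% over all genes). At 1 CPM, or with any count above 0, 17 of 64 genes were higher, which is 26.6% beside 25.3% of all genes. RECK lost its place, leaving 0 higher with an interval that leaves out equality, under DESeq2 size factors, total counts and counts outside the first exonic region, the last chosen after seeing the data. Under the other settings run (upper quartile, more than 3 counts, log2(CPM + 1), expected counts not rounded, more than 1 exonic region) each count computed stayed within 1.5 times its value and the median kept its sign. The interval rule was not applied to expected counts not rounded. The count of 6 lower genes with such an interval became 8 with DESeq2 size factors and 7 with total counts. It became 5 where counts on more than 1 exonic region were required, which leaves out TIMP1, read in 1 region.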
